A study of Rattus norvegicus with 6 samples.

Results

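The latest spermatids are the germ cells of the rat testis in which Oaz3, Smcp and Odf1 stood highest relative to the marker genes of earlier germ cells. Each of 30 marker genes was turned into a z-score over all cells, the scores were averaged within 10 sets of 3 genes, and a cell joined the set with its highest average. The set of Oaz3, Smcp and Odf1 (set 10) took 1190 of 11744 cells, or 10.1%. The cells came from single-cell libraries of testicular tissue from SD rats: 3 post-stressed animals that had gone through a terrified-sound model of psychological stress, and 3 normal animals as controls, with 1 library each. The age of the animals and the length of exposure are not given in the sources used. The labels name no transgene or other treatment in either group. The tissue was dissociated without a stated sort.

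In the last phase of spermatid development the nucleus condenses and transcription ends, so that the cell lives on messenger RNA stored earlier. Histones are replaced first by transition proteins (Tnp1, Tnp2) and then by protamines (Prm2), while the tail is built from outer dense fibres, a fibrous sheath and a midpiece wrapped in mitochondria. The 3 genes that define the set belong to the later steps: Smcp encodes a cysteine-rich protein of the mitochondrial capsule, Odf1 a main protein of the outer dense fibres, and Oaz3 the antizyme of haploid germ cells, which restrains polyamine synthesis.

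The stressed libraries gave 54, 281 and 210 latest spermatids, and the control libraries gave 256, 47 and 342. Total counts per library were between 16756543 and 114984746, and the counts summed over latest spermatids were between 1659547 and 11852388. Stressed replicate 1 was the smallest library, with 409 cells in all, and every one of its 54 latest spermatids carried at least 3 counts of macrophage marker genes, against 14.0% to 57.4% of latest spermatids in the other 5 libraries. Summed over the 10 macrophage markers, the level in latest spermatids was 613, 74.3 and 101 CPM (counts scaled to a total of 1e6 per library's latest spermatids) in stressed and 126, 125 and 76.3 CPM in control animals. Apoe was the most abundant of them in all 6 libraries, with 924, 562 and 546 counts in stressed and 945, 188 and 861 in control libraries. Outside stressed replicate 1 no other macrophage marker passed 70 counts in a library, so the measure of at least 3 counts rested mainly on Apoe there. Cd163 had no count, and Cd74 had 216 of its counts in stressed replicate 1 against 0 to 8 in each other library. Immediate early genes stood apart in the same library, at 150 CPM against 15.7 and 7.34 CPM in the other stressed and 13.6, 20.5 and 5.99 CPM in the control libraries. Leydig cell markers summed to 66.8, 18.2 and 28.5 CPM in stressed and 20.04, 13.9 and 12.2 CPM in control libraries, and peritubular markers to 73.1, 23.3 and 28.8 CPM in stressed and 16.7, 18.7 and 21.3 CPM in control libraries. Sertoli markers summed to at most 19.5 CPM, endothelial markers to at most 1.35 CPM, and T and NK cell markers to at most 8.97 CPM in any library. Control replicate 2 held 47 latest spermatids among 1801 cells and 590 condensing spermatids, the set marked by Prm2, Hspa1l and Slc30a4 (set 9). At most 2 cell barcodes of a library also occurred in another library.

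Smcp, Oaz3 and Odf1 chose the cells, so their levels are a description. Smcp had 28621, 80220 and 43394 CPM in latest spermatids of stressed animals and 60915, 86234 and 52771 CPM in those of controls. Oaz3 had 25837, 43307 and 33172 CPM in stressed and 44273, 52513 and 30334 CPM in control animals. Odf1 had 8524, 9647 and 6114 CPM in stressed and 9963, 19433 and 6385 CPM in control animals. The groups overlapped for all 3 genes, with stressed replicate 1 lowest for Smcp and Oaz3 and control replicate 2 highest for each of the 3. Against condensing spermatids the mean over 6 libraries was 58692 and 30126 CPM for Smcp, 38239 and 18179 CPM for Oaz3, and 10011 and 5241 CPM for Odf1. Prm2, the protamine that marks condensing spermatids, stood at 23319 CPM in latest and 22703 CPM in condensing spermatids, while the other markers of that set were lower: Hspa1l had 454 and 1147 CPM and Slc30a4, a zinc transporter, had 212 and 875 CPM. All 21 marker genes of the spermatocyte, round and early elongating sets (sets 1 to 7) had a median of 0 over the latest spermatids. Over single latest spermatids the median of Tnp2, a marker of elongating spermatids (set 8), was 1478 CPM with quartiles of 330 and 14330 CPM. The order of the sets is that of their labels and was not measured.

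**Figure D1:**
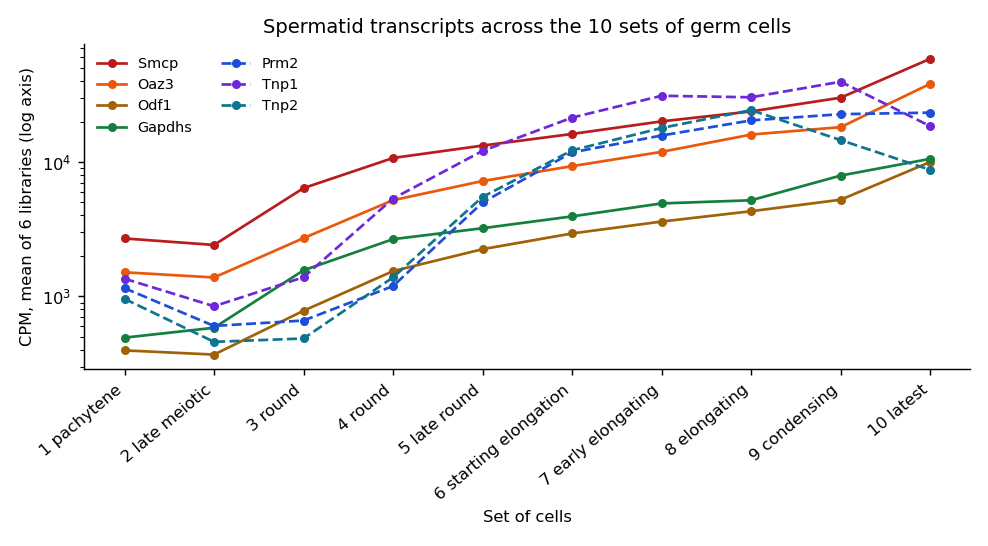
Mean CPM over 6 libraries (log axis) of 7 spermatid transcripts in the 10 sets of germ cells, from the pachytene set to the latest spermatids. Smcp, Oaz3, Odf1 and Gapdhs (solid) are highest in the latest spermatids, while Tnp1 and Tnp2 (dashed) are highest in condensing and elongating spermatids and Prm2 (dashed) differs little between condensing and latest spermatids.

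The promoters of 5 of these transcripts are shown because their pooled levels differed within the latest spermatids. Smcp, Oaz3 and Gapdhs, the sperm form of glyceraldehyde-3-phosphate dehydrogenase, were highest in the cells without Tnp1 and Prm2 described further on, and Tnp1 and Hmgb4, an HMG-box protein of the testis, were lowest there. The sequences are RefSeq's on build GRCr8, from 250 bases before to 50 bases after the annotated start. All 5 genes lie on the minus strand and are written 5′ to 3′ in the direction of transcription: Smcp at chr2:180861515-180861814, Oaz3 at chr2:184765127-184765426, Gapdhs at chr1:95121006-95121305, Tnp1 at chr9:82044229-82044528 and Hmgb4 at chr5:145901098-145901397. Capitals mark TGACGTCA, the full cAMP response element that the spermatid factor CREM can bind, and the related letters TGACATCA, searched on both strands, so that TGATGTCA is a match on the opposite strand.
Smcp: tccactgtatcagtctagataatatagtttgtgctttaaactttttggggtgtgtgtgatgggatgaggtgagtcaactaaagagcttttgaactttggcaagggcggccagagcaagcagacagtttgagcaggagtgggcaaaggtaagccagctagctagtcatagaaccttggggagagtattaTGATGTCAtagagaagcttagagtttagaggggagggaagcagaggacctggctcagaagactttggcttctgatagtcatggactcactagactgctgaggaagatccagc
Oaz3: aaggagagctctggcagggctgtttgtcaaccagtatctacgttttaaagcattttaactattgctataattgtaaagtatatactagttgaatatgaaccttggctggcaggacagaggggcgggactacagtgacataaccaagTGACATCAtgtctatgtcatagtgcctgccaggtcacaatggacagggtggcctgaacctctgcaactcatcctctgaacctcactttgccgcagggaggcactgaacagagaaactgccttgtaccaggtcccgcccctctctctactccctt
Gapdhs: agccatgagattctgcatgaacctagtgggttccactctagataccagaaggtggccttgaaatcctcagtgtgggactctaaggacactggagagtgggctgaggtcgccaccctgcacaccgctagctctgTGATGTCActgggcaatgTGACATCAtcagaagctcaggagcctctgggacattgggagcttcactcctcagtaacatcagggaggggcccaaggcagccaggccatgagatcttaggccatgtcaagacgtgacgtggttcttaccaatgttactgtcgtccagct
Tnp1: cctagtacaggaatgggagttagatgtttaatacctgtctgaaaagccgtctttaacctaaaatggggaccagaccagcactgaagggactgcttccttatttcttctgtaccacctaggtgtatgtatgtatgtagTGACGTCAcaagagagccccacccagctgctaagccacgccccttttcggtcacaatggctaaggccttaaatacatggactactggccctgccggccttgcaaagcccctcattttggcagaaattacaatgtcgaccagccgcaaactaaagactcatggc
Hmgb4: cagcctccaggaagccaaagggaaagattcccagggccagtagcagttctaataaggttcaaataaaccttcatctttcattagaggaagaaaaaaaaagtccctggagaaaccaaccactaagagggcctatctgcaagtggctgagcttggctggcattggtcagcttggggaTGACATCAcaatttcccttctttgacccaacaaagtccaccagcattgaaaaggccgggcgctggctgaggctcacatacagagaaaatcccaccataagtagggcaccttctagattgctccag
The capitals begin 62 bases before the start of Smcp, 104 before Oaz3, 117 and 99 before Gapdhs, 113 before Tnp1 and 75 before Hmgb4. The full element occurred in 1.91% and the related letters in 4.26% of 27457 promoters of this length, and either in 6.11%. The letters were chosen after reading the sequences. They were in 1 of 11 promoters found for the 20 genes that were highest at the far end of the set and in 3 of 11 found for the 20 genes that were lowest there, and no site is shown to be bound.

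The transcript with the most counts in the latest spermatids was ENSRNOG00000070067, which the files do not pair with a name, at 14.2% of counts on average and 10.1% to 16.5% by library. Smcp followed with 5.87%, Oaz3 with 3.82%, Prm2 with 2.33% and Tnp1 with 1.85%. The 15 leading transcripts together took 38.0%. Among them, Spata6, a protein of the connecting piece between head and tail, had 11432 ± 1494 CPM (SD over 6 libraries), Gpx4, the selenoprotein of the mitochondrial capsule, 8041 ± 1041 CPM, and Gsg1, a germ cell gene, 7986 ± 1801 CPM. These 3 varied less between libraries than Arl9, a small GTPase of the ARF family, which had 7995, 17613 and 22775 CPM in stressed and 8400, 18045 and 21989 CPM in control libraries. A CPM is a share of a cell's counts, so a gene can take a larger share because others were lost, and a change in the amount of RNA per cell cannot be told apart from it.

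The latest spermatids held fewer genes than any other set, and their counts lay on fewer transcripts. The median cell had 27854 counts and 966.5 detected genes, against 32584 counts and 1605 genes in condensing spermatids. With each cell thinned to 5000 counts, which no latest spermatid fell below, the median was 677 genes in latest and 926 genes in condensing spermatids. The 50 leading genes of a cell held 54.1% of its counts in latest and 49.9% in condensing spermatids. The number of genes was lower, and the share of the leading genes higher, in latest than in condensing spermatids of 6 of 6 libraries. Since the cells were chosen by expression, these are descriptions.

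**Figure D2:**
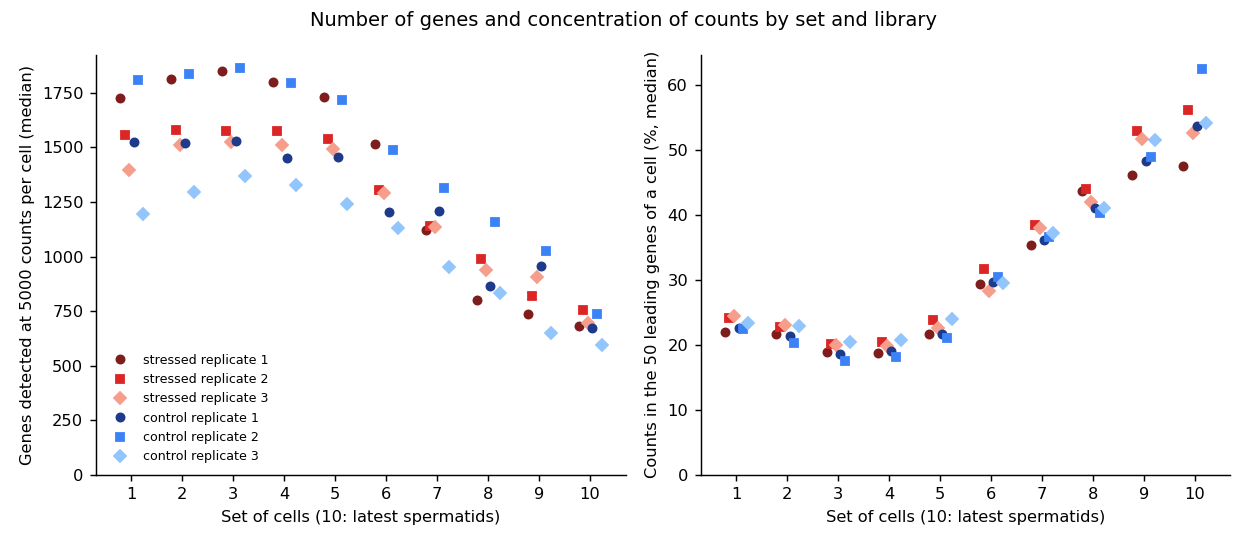
Median number of genes detected per cell at 5000 counts (left) and median share of counts in a cell's 50 leading genes (right) in each set of germ cells, with 1 point per library. In the latest spermatids (set 10) the libraries lie between 594 and 756 genes and between 47.4% and 62.4% of counts, with control replicate 2 highest in the share and stressed replicate 1 lowest.

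The set was not uniform, and its cells fell into 3 states by Tnp1 and Prm2. With a level of 3000 CPM as the boundary, chosen after seeing the cells, 747 latest spermatids (62.8%) held both transcripts above it, 308 (25.9%) held Prm2 but not Tnp1, 129 (10.8%) held neither, and 6 (0.504%) held Tnp1 without Prm2. Among 1667 condensing spermatids, 1541 (92.4%) held both, 126 (7.56%) held Prm2 alone, and 0 held neither. Prm2 helped choose the condensing spermatids, so the lack of cells without it there is tied to the rule. The 6 cells with Tnp1 alone differed from the rest: they had a median of 1118 genes at 5000 counts and 27.4% of counts in their 50 leading genes, against 588 genes and 60.7% in cells with Prm2 alone. From the state with both transcripts through Prm2 alone to neither, the median number of genes at 5000 counts was 721, 588 and 468, and the median count per cell was 28878, 26263 and 26473.

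Transcripts of the histone-to-protamine exchange were low in different states, and an order of the states in time was not measured. The genes described over the states were picked after their values were seen. In cells with both, with Prm2 alone and with neither, Tnp1 had 25831, 668 and 424 CPM and Tnp2 had 12806, 390 and 419 CPM. Spata19, a midpiece mitochondrial protein, went with them at 2869, 139 and 181 CPM. Hmgb4 and Ropn1, a fibrous sheath protein, were intermediate in cells with Prm2 alone, at 12363, 2274 and 480 CPM and at 1927, 352 and 166 CPM. The fall of Tnp1 is set by the definition of the states, and Tnp2 belongs to the rule that chose the cells. Tnp2, Spata19, Hmgb4 and Ropn1 were lower in cells with Prm2 alone than in cells with both in 6 of 6 libraries, of which stressed replicate 1 has 1 cell with Prm2 alone, and this is a description of genes picked for it. Other genes were lowest in the cells with neither transcript, where Prm2 is low by definition, at 30178, 28544 and 624 CPM over the states. Prm3, a further spermatid gene of the protamine cluster, had 6693, 4872 and 410 CPM, H2bl1, a spermatid H2B variant, 1829, 1507 and 109 CPM, and Fth1, the ferritin heavy chain, 2634, 2258 and 150 CPM. Dynll2, a dynein light chain, lay between the groups at 4870, 2678 and 175 CPM. Each of these 4 was lower in cells with neither than in cells with Prm2 alone in 5 of the 5 libraries that had such cells. In cells with neither transcript, Tnp1, Tnp2 and Prm2 stood below their mean in the pachytene set (1355, 958 and 1151 CPM), a type that should lack them, so these values are read as background.

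Over the same states the marker transcripts took a growing share, and so did some picked genes of energy metabolism and protein folding, while others of these kinds did not. Smcp had 37832, 56307 and 204590 CPM, Oaz3 23205, 39302 and 123966 CPM, and Odf1 5675, 8246 and 27835 CPM. These markers chose the cells, and the states are cut on Prm2, a gene of the condensing set. Their rise over the states is therefore tied to the rule. Azin2, an antizyme inhibitor and so a partner of the Oaz3 product, had 133, 197 and 975 CPM. Of the glycolytic enzymes, Hk1 (hexokinase) had 1162, 1869 and 5083 CPM and Eno1 (enolase) 338, 566 and 1328 CPM, while Gapdhs had 6575, 13996 and 17681 CPM and was higher in cells with neither than in cells with Prm2 alone in 3 of 5 libraries. Ldhc, the testis form of lactate dehydrogenase, had 805, 335 and 189 CPM. Hspb9, a small heat shock protein of the testis, had 2253, 3174 and 13700 CPM, Bag1, a cofactor of HSP70, 1657, 2679 and 6234 CPM, and Pebp1, a phosphatidylethanolamine-binding protein, 4064, 5876 and 17986 CPM. Hspa1l, an HSP70 of spermatids, had 391, 427 and 25.3 CPM and was lower in cells with neither than in cells with Prm2 alone in 5 of 5 libraries. It is a gene of the condensing set, so its fall is tied to the rule as well. Hk1, Eno1, Hspb9, Bag1, Pebp1 and Azin2 were higher in cells with neither than in cells with Prm2 alone in 5 of 5 libraries. Akap4 and Odf2 were highest in cells with Prm2 alone, unlike Ropn1 and Odf1 of the same list. Akap4, the anchoring protein of the fibrous sheath, had 2046, 3224 and 969 CPM, and Odf2 had 5042, 7678 and 3729 CPM. ENSRNOG00000070067 did the same, at 139269, 190237 and 67241 CPM.

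**Figure D3:**
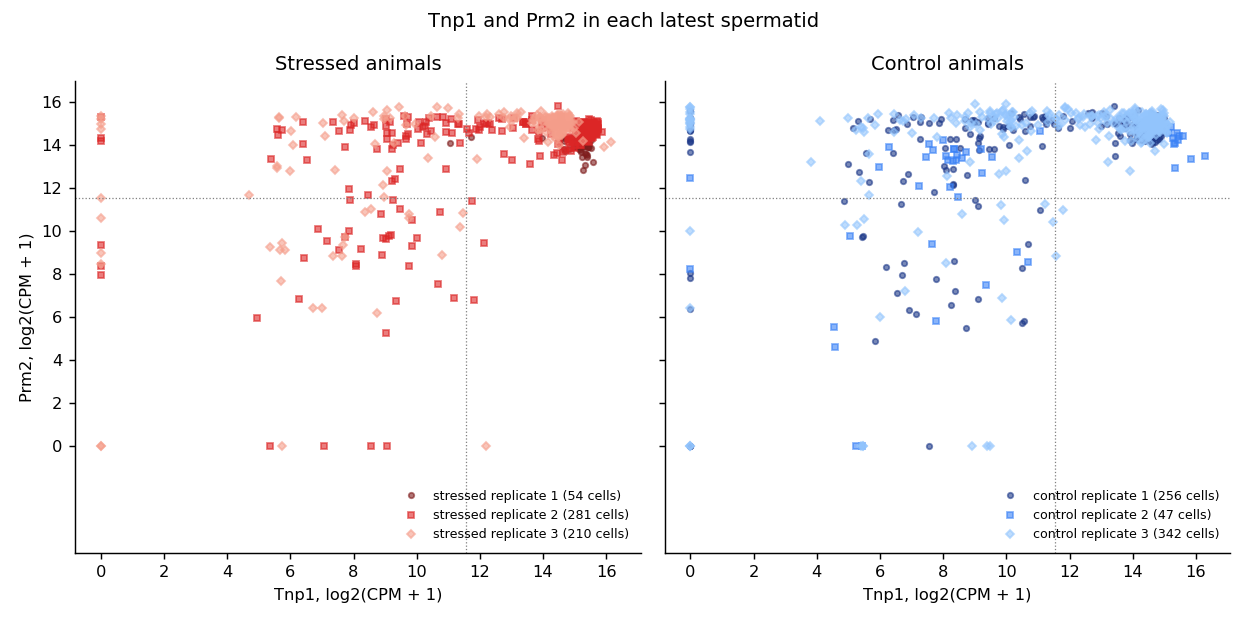
Tnp1 against Prm2 in each latest spermatid, both as log2(CPM + 1), for stressed animals (left) and control animals (right), 1 point per cell, with dotted lines at 3000 CPM. Most cells sit at upper right with both transcripts, 308 lie at upper left with Prm2 alone, 129 lie at lower left, and 6 lie at lower right.

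The states were filled in different proportions by the libraries, as measured by the cells with Tnp1 below 3000 CPM. These were 1 of 54 (1.85%), 95 of 281 (33.8%) and 66 of 210 (31.4%) latest spermatids in stressed libraries, and 121 of 256 (47.3%), 34 of 47 (72.3%) and 120 of 342 (35.1%) in control libraries. The Wilson 95% intervals were 0.328% to 9.77%, 28.5% to 39.5% and 25.5% to 38.0% in stressed libraries, against 41.2% to 53.4%, 58.2% to 83.1% and 30.2% to 40.3% in control libraries, and cover counting error only. The stressed libraries all lay below the control libraries, but stressed replicates 2 and 3 and control replicate 3 overlapped in their intervals. Cells with neither transcript made up 0%, 12.8% and 12.4% of latest spermatids in stressed and 12.1%, 23.4% and 7.31% in control libraries. For stressed replicate 1 a count of 0 among 54 cells allows a share of up to 5.56% by the limit of 3 counts, and the Wilson upper bound is 6.64%. No test was made because the boundary was chosen on these cells. Among condensing spermatids the share below 3000 CPM was 4.17%, 6.01% and 7.69% in stressed and 9.16%, 7.46% and 10% in control libraries.

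The cells also differed in their distance from the boundary of the set. The margin is a cell's score for Oaz3, Smcp and Odf1 minus its best other score, in z units, and a cell near 0 is on the border. The margin is built from Smcp, Oaz3 and Odf1 and, through the best other score, from markers of other sets such as Prm2 and Tnp2. The movement of these genes along it is therefore fixed by the rule and is no second observation of the states. It was under 0.25 in 389 cells, 0.25 to 1 in 547, 1 to 2 in 157 and 2 or more in 97. The best other set was the condensing spermatids for 725 latest spermatids, the elongating set for 185 and the pachytene set for 130. The pachytene markers Psma8, Piwil1 and Sycp3 had a median and an upper quartile of 0 CPM over all latest spermatids. A second place of the pachytene set alone therefore does not show pachytene RNA in a cell. The 172 cells within 0.1 inside the border had 34396 CPM of Smcp, 21455 of Oaz3 and 5630 of Odf1, and the 211 cells within 0.1 outside it had 32831, 20365 and 5011 CPM, so values on either side of the border were close. At margins of 2 or more, Smcp reached 247470 CPM and Oaz3 146589 CPM, and the median number of genes at 5000 counts was 414, against 772 under 0.25. Tspan6, a tetraspanin, had 795 CPM under 0.25 and 6592 CPM at 2 or more, and Nupr2, a nuclear protein, 1378 and 7174 CPM. Both genes were picked for their ratio between these bands. Stressed replicate 1 had 0 of 54 cells at margins of 1 or more.

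**Figure D4:**
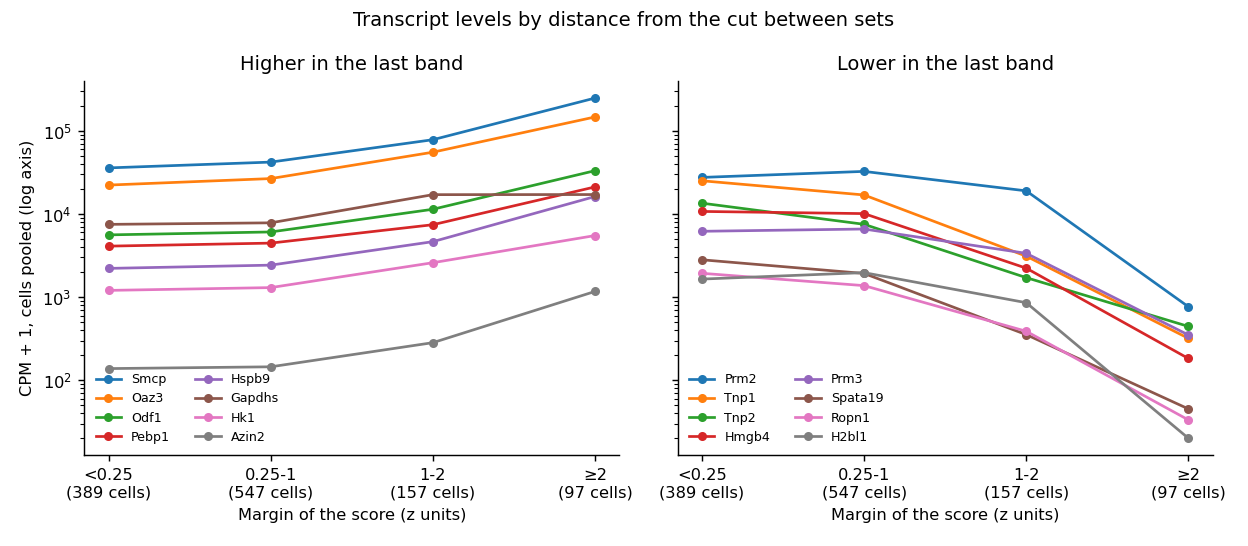
CPM + 1 (log axis) of transcripts that were higher (left) or lower (right) at the far end of the set, over 4 bands of the score margin in z units, cells of all libraries pooled, with the number of cells under each band. Smcp has 35780 CPM in the first and 247470 CPM in the last band, while Prm2 has 27497 and 765 CPM, and both genes enter the score on the axis.

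By function, the lists of genes differed in which way they stood against condensing spermatids, without a test because the cells were chosen by expression. Polyamine genes summed to 38858 CPM in latest and 18630 CPM in condensing spermatids, nearly all of it Oaz3, and to 618 and 451 CPM without Oaz3. Azin2 had 293 and 157 CPM. The mitochondrial sheath list summed to 71973 and 44637 CPM with Smcp, which chose the cells. Without Smcp it summed to 13280 and 14511 CPM and was higher in 1 of 6 libraries. Within it Spata18, a mitochondrial quality-control gene, had 1185 and 867 CPM and was higher in 6 of 6 libraries, while Spata19 had 1969 and 2806 CPM. Outer dense fibre and fibrous sheath genes summed to 35612 and 30491 CPM with Odf1 and to 25601 and 25250 CPM without it, and were split, with Odf2 at 6141 and 6030 CPM and Ropn1 at 1522 and 2571 CPM. Glycolytic genes summed to 16404 and 12323 CPM and were higher in 6 of 6 libraries, with Hk1 at 1992 and 1152 CPM, Pgk2, the testis phosphoglycerate kinase, at 1546 and 1025 CPM, and Eno1 at 512 and 272 CPM. Chaperone genes summed to 14755 and 12645 CPM, or 14301 and 11498 CPM without Hspa1l, with Hspb9 at 4206 and 2186 CPM and Dnajb8 at 2503 and 1830 CPM, both higher in 6 of 6 libraries. The testis-specific kinases summed to 6068 and 6049 CPM, in which Tssk6, needed for histone removal in mice, was higher (1581 and 1162 CPM) and Tsks, a kinase substrate, lower (1543 and 1999 CPM). Of the ubiquitin list, Ube2n, a conjugating enzyme, had 880 and 531 CPM.

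Several groups stood lower than in condensing spermatids, others close to them, and some higher. The transition protein and protamine list summed to 67238 CPM in latest and 95210 CPM in condensing spermatids, and without the rule's genes Tnp2 and Prm2 to 35175 and 57943 CPM. The axoneme list, at 3070 and 4055 CPM, and the testis actin-related list, at 5409 and 6847 CPM, were lower in 6 of 6 libraries. Spag17, of the axoneme's central apparatus, had 739 and 1020 CPM, Meig1, a manchette transport protein, 576 and 958 CPM, and Cylc2, a protein of the perinuclear theca, 750 and 1347 CPM. Sperm-egg fusion genes summed to 4872 and 4691 CPM, most of it Crisp2 (3900 and 3387 CPM), while Izumo2 had 117 and 230 CPM. Ybx3, a Y-box protein that binds stored messenger RNA, had 83.4 and 214 CPM, and the poly(A)-binding gene Pabpc1 had 258 and 220 CPM, against 10250 CPM in the pachytene set. The whole messenger RNA storage list summed to 1796 and 2094 CPM, against 16141 CPM in the pachytene set. Acrosome genes summed to 1614 and 1496 CPM, against 12155 CPM in the round spermatid set marked by Tex29, Sun5 and Sctr, and ion channels to 453 and 600 CPM, against 2486 CPM there. Oxidative defence genes summed to 9651 and 10335 CPM, manchette genes to 5346 and 5747 CPM, ubiquitin genes to 7991 and 8763 CPM, and round spermatid genes to 890 and 1088 CPM. Apoptosis genes, at 356 and 240 CPM, were higher in 5 of 6 libraries, and spermatogonial genes, at 120 and 92.9 CPM, in 6 of 6. In either list only 1 member reached 50 CPM. A higher mean than in condensing spermatids was held by 11 of 25 apoptosis and 2 of 5 spermatogonial members. Control replicate 2 had the highest apoptosis sum, at 613 CPM, and the spermatogonial list summed to 28.5 CPM in the pachytene set. Pachytene genes summed to 109 and 87.5 CPM, or 78.1 and 62.1 CPM without the rule's genes, and were higher in 5 of 6 libraries. Outside the lists and the marker genes, the largest positive ratio was that of Cep290, a centrosomal and ciliary protein, at 71.6 and 19.0 CPM, and among the 10 lowest were Secisbp2, which serves selenocysteine insertion, at 18.7 and 60.7 CPM, and Spast, a microtubule-severing enzyme, at 31.4 and 74.9 CPM.

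Latest spermatids made up 13.2%, 11.2% and 9.40% of the cells in stressed libraries and 10.9%, 2.61% and 13.9% in control libraries. The groups overlapped, with control replicate 2 far below every other library. The mean share was 11.3% ± 1.90 in stressed and 9.16% ± 5.87 in control animals (SD, n = 3 each), a difference of 2.11 percentage points with p = 0.8 by a 2-sided exact permutation test over libraries. With 3 animals against 3 this test cannot give a p below 0.1. The sign was not stable: without control replicate 2 the difference was -1.16 points, and as a share of elongating, condensing and latest spermatids together it was -0.56 points, 24.9% ± 2.04 in stressed and 25.5% ± 17.2 in control animals. The median cell had 710.5 ± 40.0 genes at 5000 counts in stressed and 668 ± 72.1 in control animals (exact permutation p = 0.4), and the 50 leading genes held 52.0% ± 4.34 and 56.7% ± 4.94 of its counts (exact permutation p = 0.4). Over the 6 measures compared in this way the adjusted p was between 0.8 and 1.

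No gene differed between latest spermatids of stressed and control animals at an adjusted p under 0.05. edgeR's quasi-likelihood test on counts summed per library, with Benjamini-Hochberg adjustment, called 0 of 6210 tested genes (0%), and 110 (1.77%) had an unadjusted p under 0.05. The levels of all stressed libraries lay above or below those of all control libraries for 478 genes (7.70%), 232 above (3.74%) and 246 below (3.96%). DESeq2 on the same sums called 2 genes, AABR07001902.1 and Arhgef28. The smallest p was that of AABR07001902.1, which the files do not describe. It had 34.9, 27.3 and 31.5 CPM, scaled by TMM, in stressed and 1.51, 0 and 2.93 CPM in control libraries, and the groups were far apart. The log2 change was 4.13 (SE 0.76, edgeR adjusted p = 0.311), and in condensing spermatids of the same animals it was 4.03. The p-values weigh the group difference against the spread between these libraries and take the animals as independent. The labels do not say that the animals are unrelated or litter-matched.

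Among named genes that were higher in stressed animals, the values below are TMM-scaled CPM and each edgeR adjusted p was 0.999. Pdcl2, a phosducin-like protein of the testis, had 890, 610 and 493 CPM in stressed and 264, 274 and 434 CPM in control libraries, a log2 change of 1.03 (SE 0.35). Smox, the spermine oxidase of the polyamine pathway, had 40.1, 20.6 and 25.1 CPM in stressed and 14.5, 2.87 and 1.84 CPM in control libraries, a log2 change of 2.10 (SE 0.74), with 2.49 in condensing spermatids. For these 2 genes the groups did not overlap, as for 7.70% of all tested genes. The named genes were picked by the smallest p on these same values, so the lack of overlap is tied to that choice. Ncl (nucleolin), Asb5, Ctr9, a transcription elongation subunit, Jam3, a junction protein, and Ncr3, an immune receptor gene, did not overlap either, with log2 changes of 2.27, 2.06, 3.12, 4.07 and 1.55. Emc6, of a membrane insertion complex, overlapped, with 85.9, 9.59 and 27.1 CPM in stressed and 11.9, 3.58 and 13.6 CPM in control libraries. Jam3 rested largely on stressed replicate 1, at 31.5 CPM against 2.37 and 9.23 CPM in the other stressed libraries, and Ctr9 had 20.6 CPM there against 4.48 and 4.15 CPM. That library is also the one with the most macrophage and immediate early RNA. Without it the log2 changes of Jam3, Ctr9 and Emc6 were 2.77, 1.97 and 0.86. Without the cells that hold 3 or more macrophage counts, they were 1.19, 1.38 and 1.07, and that of Smox was 0.97. This setting left no cell of stressed replicate 1 and 20 cells of control replicate 2. Outside stressed replicate 1 most of the macrophage counts were those of Apoe. It dropped the whole of stressed replicate 1, so macrophage RNA was not tested apart from that library. The part of immediate early RNA was not tested on its own either.

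Among those lower in stressed animals, Arhgef28 had 0, 0.872 and 0.754 CPM in stressed and 12.1, 13.6 and 8.62 CPM in control libraries. That was 11 counts in stressed against 226 in control animals, with a log2 change of -4.20 (SE 1.13, edgeR adjusted p = 0.999). Chmp1a, of the ESCRT machinery, had 9.75, 9.22 and 9.61 CPM in stressed and 26.1, 34.4 and 14.8 CPM in control libraries, a log2 change of -1.38 (SE 0.58). Both kept the groups apart, which the choice by smallest p favours. P2rx4, an ATP-gated channel, Wdr48, a cofactor of deubiquitinases, Swt1, Plcxd3 and Asf1b, a histone chaperone, did so as well, with log2 changes of -2.73, -1.25, -2.82, -3.67 and -3.09. Lipe, the hormone-sensitive lipase, overlapped, with 51.0, 67.5 and 85.0 CPM in stressed and 119, 242 and 73.0 CPM in control libraries. The receptor of stress hormones, Nr3c1, was near the detection limit at 0.750, 3.74 and 3.96 CPM in stressed and 4.18, 0.717 and 0 CPM in control libraries. Its targets Fkbp5 and Tsc22d3 had 9 and 5 counts in stressed and 1 and 0 counts in control animals, too few to test. By stressed library these were 0, 0 and 9 counts of Fkbp5 and 3, 0 and 2 counts of Tsc22d3. ENSRNOG00000071151 had 0, 4.11 and 0 CPM in stressed and 3.13, 0 and 5.27 CPM in control libraries, and Pheta1 had 1 count in each group.

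**Figure D5:**
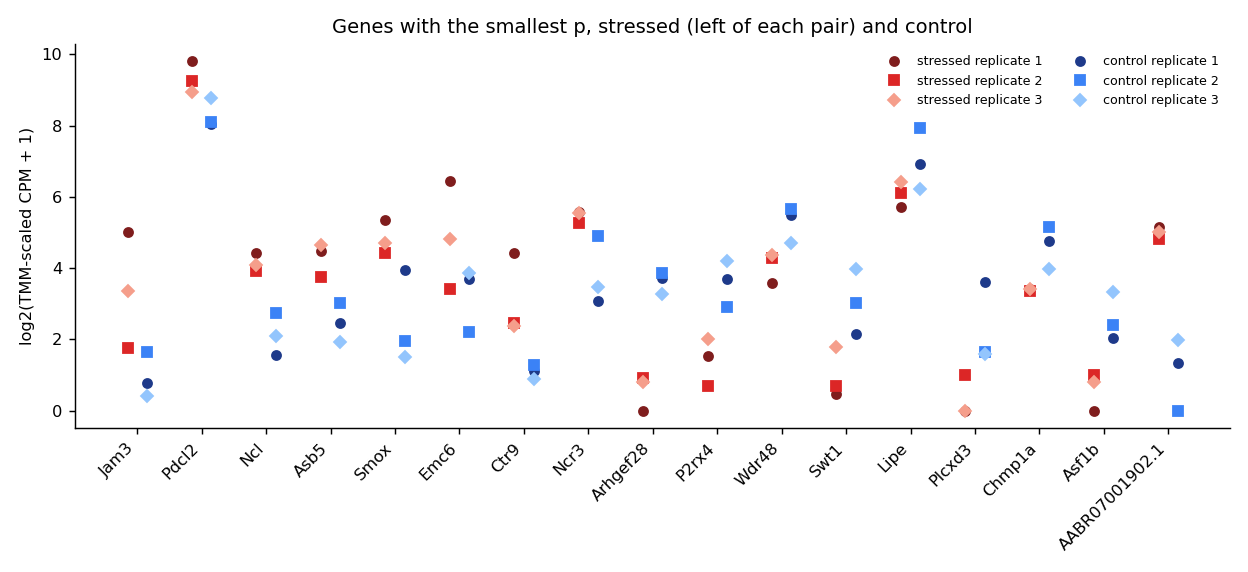
Level of the named genes in latest spermatids as log2(TMM-scaled CPM + 1), 1 point per library, stressed left of control for each gene. AABR07001902.1 shows 3 stressed libraries between 27.3 and 34.9 CPM above 3 control libraries between 0 and 2.93 CPM, and stressed replicate 1 lies highest for Jam3, Emc6 and Ctr9.

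Of 288 tested genes on the lists, 0 were called, 5 had an unadjusted p under 0.05, and 32 (11.1%) did not overlap between the groups, 14 above and 18 below, beside 7.70% over all tested genes. The median log2 change was -0.05 over these list genes and -0.07 over all genes. By list the medians were 0.29 for 12 transition protein, protamine and late chromatin genes, 0.16 for 15 testis actin-related genes, -0.02 for 16 chaperones, -0.05 for 19 outer dense fibre and fibrous sheath genes, -0.07 for 18 mitochondrial sheath genes, -0.08 for 9 polyamine genes, -0.16 for 16 glycolytic genes, -0.23 for 20 acrosome genes and -0.50 for 11 ion channels and transporters. Over the lists not named here with any gene tested, the medians were between -0.68 (Sertoli, 1 gene) and 0.30 (peritubular, 3 genes). No list held a called gene. The lists kept genes of the rule that chose the cells, among them Prm2, Tnp2, Smcp, Odf1 and Oaz3. Their medians and counts of genes without overlap are therefore descriptions. The glucocorticoid list summed to 37.2, 32.8 and 36.2 CPM in stressed and 61.4, 33.1 and 32.7 CPM in control libraries.

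Tnp1 was among the 32. It had 29230, 24568 and 15911 TMM-scaled CPM in stressed and 10980, 13695 and 14054 CPM in control libraries, with a log2 change of 0.85 (SE 0.32, edgeR adjusted p = 0.999). Every stressed library lay above every control library. Spata19, low in the same states as Tnp1, had a log2 change of 0.70 (SE 0.34) and Ldhc 0.64 (SE 0.32), also with groups that did not overlap. The levels of Prm2 overlapped between the groups. Prm2 belongs to the rule that chose the cells, so no fitted change of it is given. The lower share of cells with Tnp1 below 3000 CPM in stressed libraries, given above, comes from the same Tnp1 values and is no second observation. In the cells above 3000 CPM the median of Tnp1 was 37443, 38284 and 22261 CPM in stressed and 21924, 41791 and 22967 CPM in control libraries, and there the groups overlapped. In condensing spermatids Tnp1 overlapped as well, at 35515, 37498 and 44672 CPM in stressed and 42554, 58668 and 18717 CPM in control libraries (not TMM-scaled). The part of the mix of cells in the change of Tnp1 in latest spermatids was not tested.

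Whether stress acted differently on latest than on condensing spermatids was tested as an interaction, with the animal as a block. Again 0 of 7597 genes (0%) were called by edgeR, and 168 (2.21%) had an unadjusted p under 0.05. The smallest p values with a positive difference, latest minus condensing, belonged to Efcab15, Zfr and Actr10. Their log2 changes differed by 1.47 (SE 0.43), 1.89 (SE 0.59) and 1.31 (SE 0.41). Those with a negative difference were Elf2, Chmp1a and Sbds, at -2.47 (SE 0.74) for Elf2 and -2.40 (SE 0.79) for Chmp1a (edgeR adjusted p = 0.999 each). The log2 changes in latest and condensing spermatids were 0.93 and -0.45 for Efcab15, 1.70 and -0.07 for Zfr, 0.76 and -0.54 for Actr10, and -0.99 and 0.82 for Elf2. Chmp1a had 10.2, 9.70 and 10.1 CPM in stressed and 27.5, 35.0 and 15.6 CPM in control latest spermatids (TMM-scaled over both sets). Its log2 change was -1.38 in latest and 0.88 in condensing spermatids. Sbds had no count in latest spermatids of the 3 stressed libraries and 3.90, 0 and 2.39 CPM in those of the control libraries, so its fitted change is not given.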

How the data were processed

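Single cells of testicular tissue were sequenced on the Singleron platform, with 3 stressed and 3 control rats. The authors deposited, per library, raw counts for 21170 genes in each cell and, separately, normalized values. The deposited normalized values are on a natural log scale: each cell's counts were brought to a total of 10000 and 1 was added before taking logs, which a recomputation from the counts matched within 1e-09 for all but 0 values. The aligner, the build, the cell filter and whether counts are reads or molecules were not stated, so counts per cell do not measure RNA amount.

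The natural log values chose the cells. Counts were then summed per library over at least 20 cells and tested with edgeR 4.0.16 (R 4.3.3, TMM, filterByExpr, robust quasi-likelihood fit, Benjamini-Hochberg adjustment at 0.05), with DESeq2 1.42.0 as an alternative. Shares were compared by exact permutation over libraries (scipy 1.17.1), and intervals are Wilson 95%. The edgeR steps were run on counts simulated from the kind of model that the test assumes. This was a check of the steps and does not bear on the lack of called genes here. No doublet caller was run.

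Members and lists were chosen with earlier results of these data known. Genes named for stress are the 8 of smallest p in each direction with at least 5 CPM, plus listed names. Genes named for the interaction are the 3 of smallest p in each direction. Genes described by set are the 15 with the most counts, those of the largest ratio against condensing spermatids at 50 CPM or more, and leading list members. Alternatives covered scaling, filtering, membership, the replicate block and leaving out libraries. Replicate numbers only name animals.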

Additional observations from a re-analysis of the deposited data

How the results depend on the processing

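The difference in the share of latest spermatids, 2.11 points, turned negative as a share of elongating to latest spermatids (-0.56), with cells at a margin of 0.25 or more (-0.41) and, chosen after seeing the data, without control replicate 2 and stressed replicate 1 (-2.13). Leaving out 1 library gave -1.16 (without control replicate 2) to 4.503 points. The count of called genes was 0 and became 2 with DESeq2 (Arhgef28, adjusted p = 0.0418, and AABR07001902.1, adjusted p = 7.93e-06), 2 with no filter on low counts (AABR07001902.1 and Igfbp3 by edgeR), and 0 to 1 with 1 library left out (AC095678.2 by edgeR without stressed replicate 3). With the replicate block it was 1 (AABR07001902.1, edgeR adjusted p = 0.0344). Same-numbered libraries did not deviate together (correlations of -0.0158, -0.0185 and 0.0442), and 1 of the 3 stressed libraries correlated best with its own number, so the numbers were not taken as pairs. The interaction count was 0 in each of its 7 alternatives. Over the alternatives in which each could be fitted, no named gene changed sign, but log2 changes spanned 0.97 to 3.67 for Smox, 1.19 to 4.76 for Jam3, 0.52 to 2.47 for Emc6, 1.38 to 3.48 for Ctr9, 0.66 to 1.31 for Pdcl2, -1.39 to -0.33 for Lipe and -5.11 to -3.64 for Arhgef28. The causes were not tested. With 47 to 342 cells per library and 1 library with 54, low transcripts and rare states are limited by depth.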
